A study of Mus musculus with 24 samples.

Results

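The smooth muscle and pericyte marker genes of the postnatal mouse heart were followed across 6 groups of hearts that differ in genotype and injected vector. The 9 genes were taken by symbol after the Ensembl gene IDs of the deposited expression tables were matched to their names. They were 4 genes of the smooth muscle contractile apparatus (*Acta2*, *Tagln*, *Myh11* and *Cnn1*) and 5 genes of pericyte and mural-cell receptors, signalling and channels (*Pdgfrb*, *Rgs5*, *Cspg4*, *Abcc9* and *Notch3*). All 9 were listed in both tables, among 15667 genes in the table of uninjected hearts and 15327 in the table of injected hearts, and all 9 passed the filter on low values.

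PolyA RNA was sequenced from 24 mouse hearts of postnatal day 7.5 (P7.5), 4 per group. The uninjected hearts were wild type (WT) or *Xinβ* KO, and the injected hearts were WT or *Xinβ* KO pups that had received AAV9-GFP or AAV9-YAP under the skin at P1. The KO is a germline deletion, present in every cell, in which a LacZ-Neo cassette takes the place of part of the *Xinβ* gene (*Xirp2*), and the controls were littermates. The vector carried GFP or 3Flag-tagged human YAP S127A, a form that escapes inhibition by the Hippo kinases, under the chicken cardiac troponin T promoter, which is active in cardiomyocytes. Mural cells were therefore not the cells meant to express the vector, whereas they carried the deletion. The tissue is labelled heart apex, and the study's methods speak of ventricles of mixed sex. Values below are CPM, the reads of a gene scaled to the size of its library, in single hearts. The uninjected and injected hearts were sequenced and scaled apart, so that comparisons were made only within each of these sets. Errors after ± are SDs over the 4 hearts of a group.

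Mural cells wrap the vessels of the heart. Smooth muscle cells surround arteries and arterioles and contract through smooth muscle actin and myosin, while pericytes sit on capillaries within the basement membrane of the endothelium and depend on PDGF-B from endothelial cells and on Notch signalling between both cell types. Transcription of the contractile genes is driven by serum response factor (SRF) with its cofactors of the myocardin family, which act at CArG boxes. None of these genes is restricted to mural cells. *Acta2* and *Tagln* are also expressed by immature cardiomyocytes and myofibroblasts, *Pdgfrb* by fibroblasts, and *Abcc9* by cardiomyocytes. In whole hearts, fewer cells of a type and less RNA per cell cannot be told apart.

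Reads assigned to genes ranged from 20490875 to 31154155 per heart (median 22619060) in the uninjected set and from 15015038 to 19444404 (median 16970390) in the injected set. *Xirp2* was at 106 to 168 CPM in uninjected WT hearts and at 0.291 to 0.692 CPM in uninjected KO hearts. In injected hearts it was at 56.0 to 149 CPM in WT and at most 0.972 CPM in KO, so that every library matched its labelled genotype. Cardiomyocyte markers summed to between 56741 and 99039 CPM over the 24 hearts. 2 libraries stood apart. In uninjected KO replicate 1, the deviation of genes from their group mean fell with transcript length, with a Spearman coefficient of -0.64 across 12642 genes, whereas the other 7 uninjected hearts lay between -0.29 and 0.40 and the 16 injected hearts between -0.33 and 0.34. This heart also differed most from the others of its group, with a chi-square of recovered reads per gene of 106 to 121 in its 3 pairs, against 17.7 to 43.6 in the other pairs of the group. KO/GFP replicate 2 came next, with 63.8 to 90.4 against 12.4 to 40.04, and all pairs without these 2 hearts lay between 11.85 and 43.6. Log2 differences of members and counts of lists are therefore also given without the heart concerned, a choice made after seeing the data. The balance of all called genes depended on scaling: 48.3% were higher in uninjected KO and 47.1% in KO/GFP hearts, against 22.15% and 25.1% with plain CPM. With YAP in KO hearts 53.15% were higher, against 78.5% with plain CPM, and for the interaction 50.2% against 71.9%. Each set of libraries was pooled into a single lane per the methods. Nothing in the labels says that hearts of a group came from separate litters, so p-values measure the spread between these samples.

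*Acta2* (ENSMUSG00000035783, chr19:34241090-34255590 of GRCm38, minus strand) encodes smooth muscle α-actin. *Tagln* (ENSMUSG00000032085, chr9:45929619-45936058, minus strand) encodes transgelin, an actin-binding protein, and its exons overlap those of *Pcsk7* and Gm48529 on the other strand. *Myh11* (ENSMUSG00000018830, chr16:14194535-14291372, minus strand) encodes smooth muscle myosin heavy chain, and *Cnn1* (ENSMUSG00000001349, chr9:22099216-22109630, plus strand) encodes calponin, which binds actin and damps myosin activity. Among the pericyte genes, *Pdgfrb* (ENSMUSG00000024620, chr18:61045150-61085061, plus strand) encodes the PDGF-B receptor. *Rgs5* (ENSMUSG00000026678, chr1:169655501-169695813, plus strand) encodes a regulator that shortens G-protein signalling, and *Cspg4* (ENSMUSG00000032911, chr9:56865033-56899870, plus strand) encodes the proteoglycan NG2. *Abcc9* (ENSMUSG00000030249, chr6:142587862-142702315, minus strand) encodes SUR2, the regulatory subunit of KATP channels, and *Notch3* (ENSMUSG00000038146, chr17:32120820-32166852, minus strand) encodes the main Notch receptor of mural cells. Exons of *Abcc9* and *Notch3* also overlap opposite-strand transcripts (5330439B14Rik and Gm17276). The libraries kept strand, but the strand setting used in counting is not given in the sources used here.

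Per kilobase of transcript, *Acta2* was the most abundant member, at a mean of 324 CPM/kb in uninjected WT hearts. It was followed by *Rgs5* at 167 and *Abcc9* at 74.2 CPM/kb. *Pdgfrb*, *Tagln* and *Notch3* followed at 32.9, 22.4 and 17.4 CPM/kb, and *Cspg4* and *Myh11* at 9.81 and 8.57 CPM/kb. *Cnn1* was lowest at 1.19 CPM/kb, with 1.12 to 5.05 CPM over all 24 hearts. All other levels below are CPM without the length term.

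RefSeq promoter windows on GRCm38.p6 were at hand for 6 of the 9 genes, *Acta2*, *Cnn1*, *Rgs5*, *Cspg4*, *Abcc9* and *Notch3*, and the 250 bases before each start were searched on both strands for 4 motifs. These were the CArG box, a CArG-like box in which at most 1 of the middle letters is not A or T, the motif GGAATG bound by TEAD factors (the DNA-binding partners of YAP), and the motif TGGGAA bound by RBPJ (the DNA-binding partner of Notch receptors). No member window held a CArG box, which was present in 1.47% of 32851 windows of the same length. *Acta2* alone held CArG-like boxes, 2 of them, against 8.59% of all windows with any. GGAATG was found in *Acta2* and *Abcc9*, against 12.6% of all windows, and TGGGAA in the same 2 genes, against 21.6%. Most of the *Acta2* window lies inside the first exon of its GENCODE transcript, so only the 30 bases around its CArG-like boxes and its TEAD motif are shown, with the match in capitals, beside the TEAD motif of *Abcc9*.
Acta2, CArG-like box, chr19:34255438-34255467, minus strand: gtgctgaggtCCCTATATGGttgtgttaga
Acta2, CArG-like box, chr19:34255388-34255417, minus strand: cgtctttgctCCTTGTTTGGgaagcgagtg
Acta2, TEAD motif, chr19:34255502-34255531, minus strand: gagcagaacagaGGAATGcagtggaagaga
Abcc9, TEAD motif, chr6:142702476-142702505, minus strand: tggtcctgaatgGGAATGgccggagtgatg
The TGGGAA match of *Acta2* overlaps the end of its second CArG-like box, and that of *Abcc9* overlaps its GGAATG. Whether any of these motifs acts in the heart was not tested. The window of *Rgs5* held none of the 4 motifs and is shown whole, with no capitals.
Rgs5, chr1:169655251-169655500, plus strand: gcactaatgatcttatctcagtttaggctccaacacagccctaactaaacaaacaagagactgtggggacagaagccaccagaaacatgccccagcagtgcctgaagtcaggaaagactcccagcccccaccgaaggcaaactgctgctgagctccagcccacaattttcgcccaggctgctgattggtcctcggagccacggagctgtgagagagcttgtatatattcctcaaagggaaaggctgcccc

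The first comparison asked what loss of *Xinβ* did to these genes without a vector. *Myh11* fell in KO hearts, while none of the other 8 members passed the test. *Myh11* was at 59.1, 55.7, 54.0 and 52.3 CPM in the 4 WT hearts and at 34.1, 45.2, 33.4 and 39.8 CPM in the 4 KO hearts. Every KO heart was lower than every WT heart. The log2 difference was -0.53 (SE 0.12, limma adjusted p = 0.0304), a 0.691-fold level. This is 1 of 9 members called, against 6.69% of the 15598 genes tested (3.46% lower in KO), a share that ran from 2.43% without WT replicate 1 to 13.5% without KO replicate 4. The groups did not overlap for this gene, as for 16.4% of all genes in either direction. Without KO replicate 1 the difference was -0.48 with an adjusted p of 0.0284. The call depended on single hearts, since the adjusted p rose to between 0.0702 and 0.107 when any 1 WT heart or KO replicate 3 was left out, with differences of -0.56 to -0.47.

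The other contractile genes varied more between KO hearts than between WT hearts. *Acta2* was at 551, 469, 707 and 913 CPM in WT and at 1154, 379, 391.7 and 854 CPM in KO hearts, so that the KO hearts spanned the whole WT range. Its log2 difference was -0.05 (95% interval -0.90 to 0.80, limma adjusted p = 0.955), and -0.35 without KO replicate 1, which held its highest value. *Tagln* was at 35.8 ± 2.93 CPM in WT and 32.6 ± 4.56 in KO hearts. *Cnn1* was at 2.84 ± 0.679 and 2.93 ± 1.58 CPM. Both pairs of groups overlapped. Their log2 differences were -0.14 and -0.04, and -0.14 and -0.27 without KO replicate 1 (limma adjusted p = 0.508 and 0.458).

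None of the 5 pericyte genes passed the test, and all of their groups overlapped. *Rgs5* was at 685 ± 23.7 CPM in WT and 628 ± 90.8 in KO hearts, and *Pdgfrb* at 178 ± 12.1 and 178 ± 32.6 CPM. *Cspg4* was nearly constant over WT hearts (79.0 to 80.4 CPM) and ranged from 58.9 to 87.4 CPM in KO hearts. For *Notch3* the WT hearts lay between 133 and 154 CPM, 3 KO hearts between 127.4 and 158, and KO replicate 1 at 78.1 CPM. *Abcc9* showed the same library at the low end, at 295 CPM against 532 to 638 in the other KO hearts and 407 to 519 in WT. Without KO replicate 1 the log2 difference of *Notch3* moved from -0.19 to 0.02 and that of *Abcc9* from 0.08 to 0.33 (limma adjusted p = 0.0798). With and without it the differences were -0.13 and -0.12 for *Rgs5*, -0.02 and 0.07 for *Pdgfrb* and -0.15 and -0.06 for *Cspg4*. KO replicate 1, the library whose deviations followed transcript length, was also the lowest KO heart for *Pdgfrb* and *Cspg4*. The longest member transcripts are those of *Cspg4*, *Notch3*, *Myh11* and *Abcc9* (6.21 to 8.12 kb). The part of length in the values of this heart was not tested further.

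**Figure D1:**
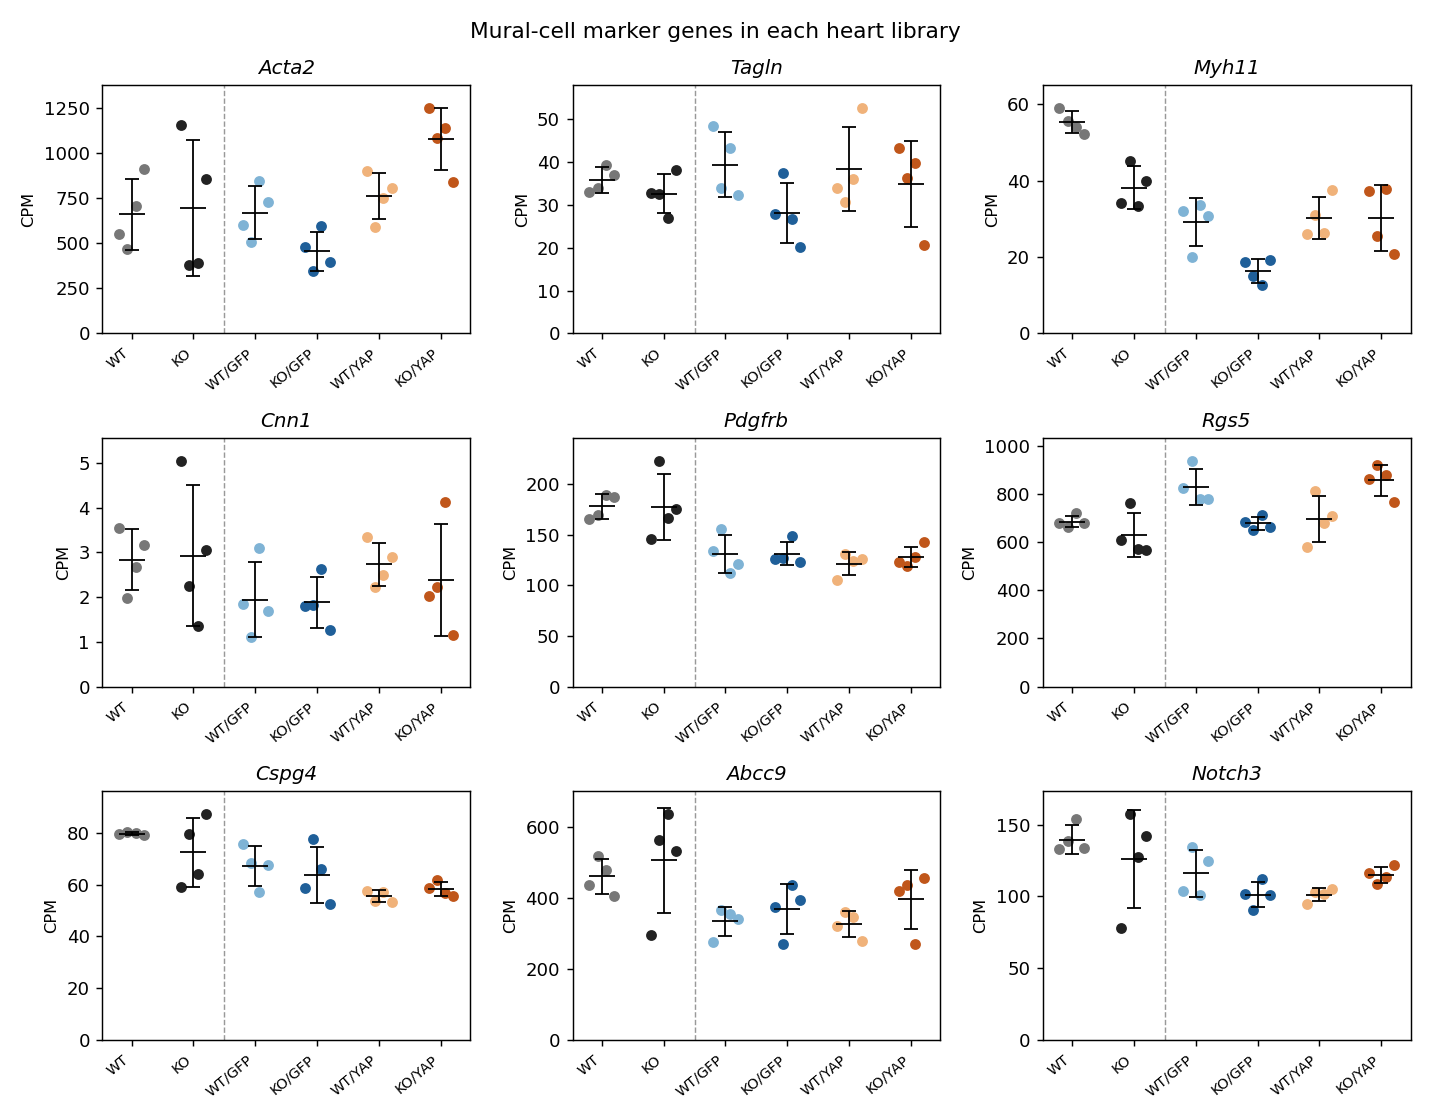
CPM (vertical axis, from 0) of the 9 mural-cell genes in each heart, with the 6 groups on the horizontal axis and a dashed line between uninjected and injected sets, which were scaled apart. Points are single hearts and black bars the mean ± SD of 4 hearts; *Myh11* is lower in each KO heart than in each WT heart in both sets without YAP, and *Acta2* reaches 840 to 1252 CPM in KO/YAP hearts.

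The same question was put to injected hearts with the GFP vector. *Myh11* again fell in KO hearts, and the other members did not pass the test. *Myh11* was at 32.0, 19.9, 33.7 and 30.8 CPM in WT/GFP and at 18.6, 15.1, 12.6 and 19.2 CPM in KO/GFP hearts. The highest KO/GFP heart lay just under the lowest WT/GFP heart. The log2 difference was -0.78 (SE 0.21, limma adjusted p = 0.0184), a 0.581-fold level. It was 1 of 9 members called, against 13.7% of the 14597 genes tested (7.22% lower in KO/GFP). The difference was -0.75 (adjusted p = 0.0294) without KO/GFP replicate 2, the heart that stood apart. Leaving out WT/GFP replicate 1 or replicate 3 moved the adjusted p to 0.0537 and 0.0523.

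*Acta2* and *Rgs5* lay near the threshold in this comparison. *Acta2* was at 600, 504, 844 and 731 CPM in WT/GFP and at 480, 344, 596 and 397 CPM in KO/GFP hearts, and the groups overlapped. Its log2 difference was -0.56 (SE 0.19, limma adjusted p = 0.0564). *Rgs5* was at 823, 938, 781 and 779 CPM in WT/GFP and at 685, 652, 713 and 664 CPM in KO/GFP hearts. These groups did not overlap, as was the case for 15.3% of genes, and the log2 difference was -0.29 (SE 0.10, limma adjusted p = 0.0651). DESeq2, plain CPM and quantile normalization put both genes past the threshold (adjusted p from 0.0181 to 0.0428), and edgeR did not (0.0628 and 0.0709). For *Acta2* the calls also turned on single hearts, with an adjusted p of 0.0339 without WT/GFP replicate 2 and 0.0187 without KO/GFP replicate 3. The differences were -0.44 for *Acta2* (adjusted p = 0.121) and -0.27 for *Rgs5* (0.0864) without KO/GFP replicate 2.

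The other 6 members had smaller or less certain differences. *Tagln* was at 39.4 ± 7.63 CPM in WT/GFP and 28.1 ± 7.09 in KO/GFP hearts, a log2 difference of -0.49 with a limma adjusted p of 0.18. *Notch3* was at 104, 135, 101 and 125 CPM in WT/GFP and at 102, 90.2, 112 and 101 CPM in KO/GFP hearts, a log2 difference of -0.19 with a limma adjusted p of 0.21. *Pdgfrb* was at 131 ± 19.0 and 131 ± 11.6 CPM, and the 95% interval of its log2 difference ran from -0.21 to 0.23. *Cspg4*, *Abcc9* and *Cnn1* had log2 differences of -0.08, 0.13 and -0.01. Without KO/GFP replicate 2 the log2 differences were -0.63 for *Tagln* (limma adjusted p = 0.0719), -0.18 for *Cspg4*, -0.14 for *Notch3*, 0.27 for *Abcc9*, 0.03 for *Pdgfrb* and -0.01 for *Cnn1*, none of them past the threshold. As a group the 4 contractile members had a median log2 difference of -0.52 and the 5 pericyte members one of -0.08, beside -0.01 over all genes tested, and without that heart -0.54 and -0.14.

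**Figure D2:**
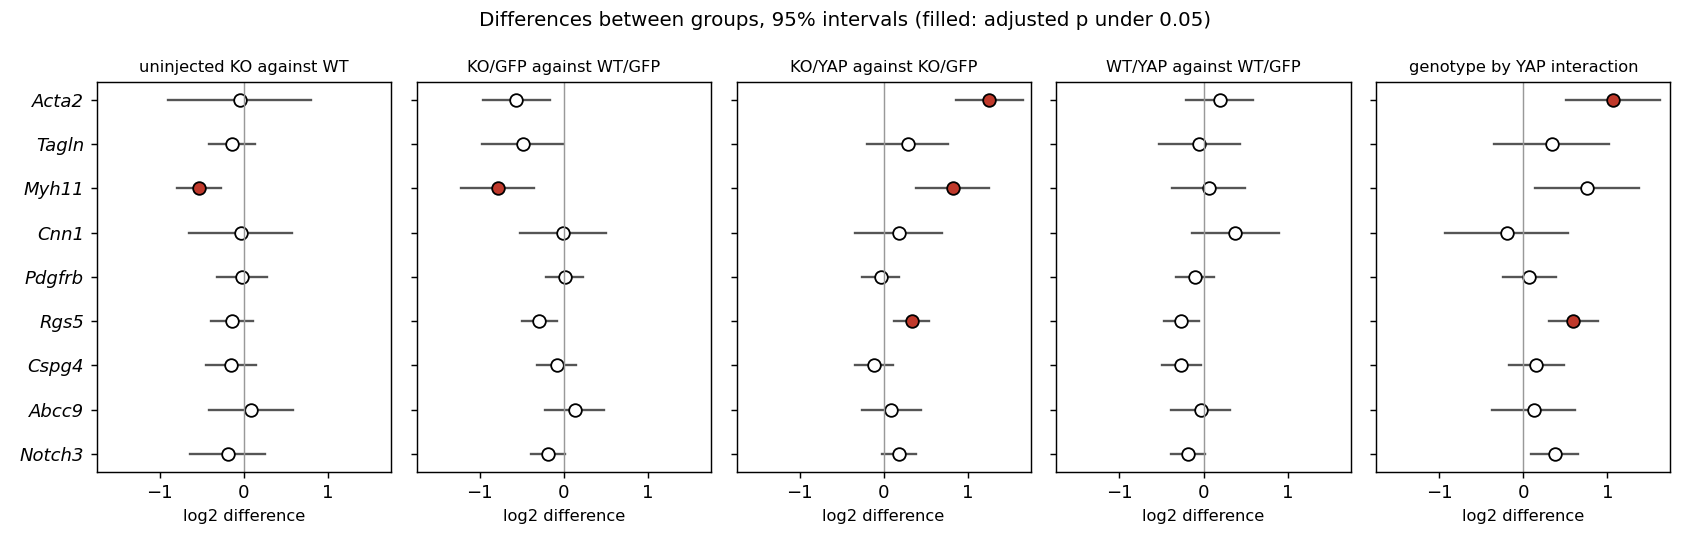
Log2 difference in CPM + 1 (horizontal axis) of each member (vertical axis) in 5 comparisons, with 95% intervals from limma; filled points have an adjusted p under 0.05. *Myh11* is on the negative side in both KO comparisons without YAP, *Acta2*, *Myh11* and *Rgs5* are on the positive side with YAP in KO hearts, and no member is filled for YAP in WT hearts. Comparisons of injected hearts share libraries.

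The third comparison asked what AAV9-YAP did in KO hearts. *Acta2*, *Myh11* and *Rgs5* rose, and these are 3 of 9 members called, against 14.8% of all genes tested (7.85% higher in KO/YAP). *Acta2* was at 1252, 1084, 1137 and 840 CPM in KO/YAP hearts, all above the highest KO/GFP heart at 596 CPM. The log2 difference was 1.26 (SE 0.19, limma adjusted p = 4.37e-04), a 2.40-fold level. *Myh11* was at 37.2, 25.4, 37.7 and 20.6 CPM in KO/YAP hearts, and even the lowest was above the highest KO/GFP heart at 19.2 CPM. Its log2 difference was 0.82 (SE 0.21, limma adjusted p = 0.0133), a 1.77-fold level. *Rgs5* was at 861, 922, 878 and 767 CPM in KO/YAP hearts, again without overlap with KO/GFP hearts, with a log2 difference of 0.33 (SE 0.10, limma adjusted p = 0.0330). The groups did not overlap for 17.5% of all genes in this comparison. The calls of *Acta2* and *Myh11* held with any 1 heart left out (adjusted p at most 0.00234 and 0.0499), whereas that of *Rgs5* was lost without any 1 of 6 of the 8 hearts (adjusted p up to 0.0948). Without KO/GFP replicate 2 the differences were 1.14 for *Acta2* (adjusted p = 9.84e-04), 0.79 for *Myh11* (0.0254) and 0.31 for *Rgs5* (0.0506).

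The remaining 6 members did not pass the test, and each had overlapping groups. *Tagln* was at 34.9 ± 10.03 CPM in KO/YAP hearts, a log2 difference of 0.29 with a limma adjusted p of 0.431, and *Cnn1* at 2.38 ± 1.25 CPM. *Notch3* was at 116, 109, 113 and 122 CPM, a log2 difference of 0.18 with a limma adjusted p of 0.202. *Pdgfrb* (128 ± 10.1 CPM) and *Cspg4* (58.3 ± 2.60 CPM) had log2 differences of -0.03 and -0.11, with 95% intervals of -0.26 to 0.19 and -0.34 to 0.12. *Abcc9* was at 396 ± 84.5 CPM, a log2 difference of 0.09 that turned to -0.05 without KO/GFP replicate 2. Without that heart those of *Tagln*, *Cnn1*, *Notch3*, *Pdgfrb* and *Cspg4* were 0.43, 0.18, 0.13, -0.05 and -0.01. The median log2 difference was 0.55 for the contractile members and 0.09 for the pericyte members, beside 0.01 over all genes, and without it 0.61 and -0.01. This comparison and the one before it share the 4 KO/GFP hearts, so that their opposite signs are not separate observations.

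In WT hearts none of the 9 members passed the test for the same vector, and limma called 0% of the 14597 genes tested (0 genes, with 1011, or 6.93%, at an unadjusted p under 0.05). edgeR also called 0 genes and DESeq2 11. *Acta2* was at 898, 590, 750 and 807 CPM in WT/YAP hearts, overlapping WT/GFP hearts, with a log2 difference of 0.19 (95% interval -0.20 to 0.59). *Myh11* was at 25.9, 31.0, 26.3 and 37.6 CPM, with a log2 difference of 0.06 (95% interval -0.37 to 0.50). *Rgs5* was at 581, 812, 680 and 708 CPM, a log2 difference of -0.26, and *Cspg4* at 55.5 ± 2.32 CPM, a log2 difference of -0.27. These last 2 had unadjusted p-values of 0.0174 and 0.0263 and a limma adjusted p of 0.703 each.

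The interaction term tested whether the YAP vector acted differently in KO and WT hearts. It was past the threshold for *Acta2* and *Rgs5*, 2 of 9 members, against 7.56% of all genes (3.8% with a greater change in KO). The log2 change with YAP was greater in KO than in WT hearts by 1.07 for *Acta2* (SE 0.27, limma adjusted p = 0.0250) and by 0.60 for *Rgs5* (SE 0.14, limma adjusted p = 0.0193). For *Acta2* the adjusted p became 0.0537 without WT/YAP replicate 2 and 0.0540 without KO/YAP replicate 1. The interaction was 0.94 for *Acta2* (adjusted p = 0.0314) and 0.58 for *Rgs5* (0.0200) without KO/GFP replicate 2. For *Rgs5* it stayed at or below 0.0432 whichever heart was left out. *Myh11* had an interaction of 0.76 (SE 0.29) with a limma adjusted p of 0.124, and 0.73 (0.150) without KO/GFP replicate 2, so that for this gene a difference between genotypes in the response to YAP was not shown. *Notch3* followed at 0.37 (SE 0.13, limma adjusted p = 0.102), and 0.32 (0.132) without that heart.

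No member passed the test between KO/YAP and WT/GFP hearts, where 0.0206% of all genes were called, or between KO/YAP and WT/YAP hearts, where 0.0411% were. *Acta2* had the highest mean in KO/YAP hearts, at 1078 ± 174 CPM, followed by WT/YAP (761 ± 129), WT/GFP (670 ± 149) and KO/GFP hearts (455 ± 110), and each of these groups overlapped its neighbour. Its log2 difference was 0.70 from WT/GFP hearts (unadjusted p = 0.00180, limma adjusted p = 0.660) and 0.50 from WT/YAP hearts (limma adjusted p = 0.348). *Myh11* had means of 30.2, 30.2 and 29.1 CPM in KO/YAP, WT/YAP and WT/GFP hearts, which overlapped, and 16.4 CPM in KO/GFP hearts, which did not reach them. *Rgs5* was ordered as KO/YAP (857 ± 65.3), WT/GFP (831 ± 74.7), WT/YAP (695 ± 95.3) and KO/GFP (679 ± 26.8), with overlap between each pair of neighbours. *Notch3* was higher in every KO/YAP heart than in every WT/YAP heart, with a log2 difference of 0.18 and a limma adjusted p of 0.476. Groups did not overlap for 9.23% of all genes in that comparison.

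Reads of *Acta2* come from a gene whose coding sequence is close to those of the cardiac and skeletal actins. *Actc1*, cardiac α-actin, was at 7930 to 19044 CPM, far above *Acta2*, and of 13734 genes it was the one whose deviations from group means were most like those of *Acta2* over the 24 hearts (Pearson r = 0.85, and 0.79 over 23 hearts without uninjected KO replicate 1). *Acta1*, skeletal α-actin, had r = 0.53. How reads shared between these actins were assigned is not given in the sources used here. *Actc1* itself did not pass the test in either comparison of KO/GFP hearts, with log2 differences of -0.27 from WT/GFP hearts (limma adjusted p = 0.337) and 0.37 with YAP (limma adjusted p = 0.156). The part of shared reads in the *Acta2* values was not tested.

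Contractile members tended to deviate together within groups, whereas for pericyte members this rested in part on 1 heart. Over the 24 hearts the median Pearson r of deviations from the group means was 0.40 for the 6 pairs of contractile genes, 0.36 for the 10 pairs of pericyte genes and -0.20 for the 20 mixed pairs. Without uninjected KO replicate 1 these medians were 0.46, 0.15 and -0.19, so that the value for pericyte genes fell most, with pairs from -0.40 to 0.72. The deviations of that heart followed transcript length, whose part in these coefficients was not tested. Without KO/GFP replicate 2 the medians were 0.49, 0.41 and -0.16. The most alike pairs of contractile and of pericyte genes were *Acta2* with *Cnn1* (0.75) and *Pdgfrb* with *Notch3* (0.73). Their coefficients were 0.66 and 0.72 without uninjected KO replicate 1. *Acta2* and *Myh11*, which both rose with YAP in KO hearts, had r = 0.07 within groups (0.18 without uninjected KO replicate 1). These coefficients share libraries and scaling and are given as descriptions.

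**Figure D3:**
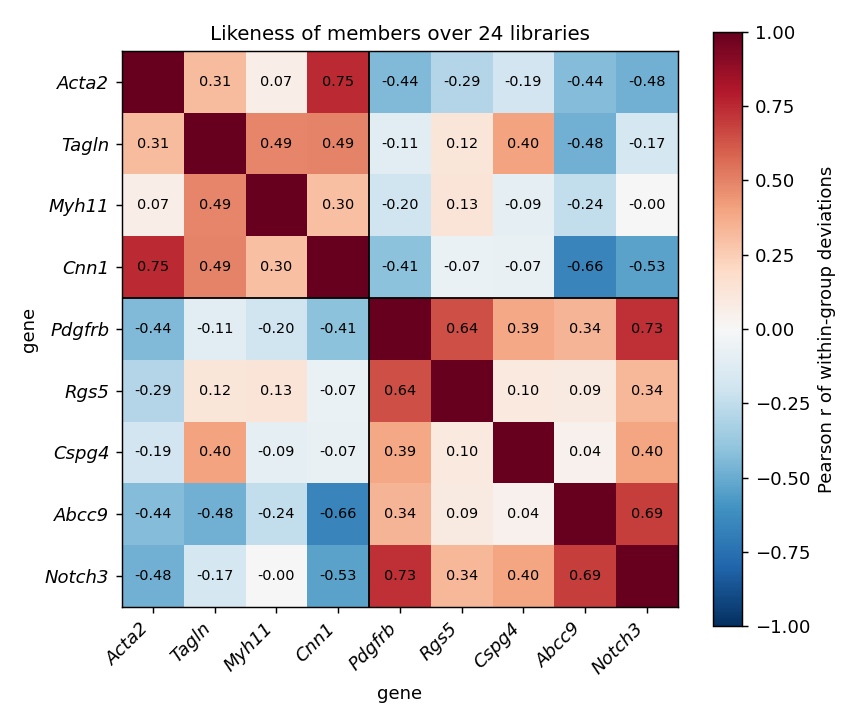
Pearson r between each pair of members (both axes), computed on deviations of log2(CPM + 1) from the group mean over 24 hearts; black lines part the 4 contractile from the 5 pericyte genes. The mixed block is mostly negative (median -0.20), and *Acta2* with *Cnn1* (0.75) is the highest pair.

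Among all genes, those whose deviations were most like a member's were mostly outside the mural lists, as are most of the genes searched. They were picked as the highest of 13734 genes, and the r that such a search reaches by chance was not tested. *Notch3* was nearest to *Soga1* (r = 0.95, and 0.85 without uninjected KO replicate 1) and *Nid1* (0.93 and 0.77), which encodes a basement membrane protein. *Abcc9* was nearest to *Cmya5*, a gene of striated muscle (0.93 and 0.90), and to Gm42427 (0.92). *Cspg4* was nearest to *Aspm*, a spindle gene of dividing cells, and to *Kntc1*, a kinetochore gene (both 0.86). *Rgs5* was nearest to *Snrk* and *Kif26a* (0.71 and 0.70), *Pdgfrb* to *Cpm* and *Ppm1h* (0.81 and 0.77), and *Cnn1* to *Ddx39b* and *Mrps22* (0.85 and 0.81). For *Tagln* these were Gm15708 and Gm26917 (0.84 and 0.81), for *Myh11* Gm7162 and *Dlgap4* (0.79 and 0.78), and for *Acta2*, after *Actc1*, the pseudogene Eif4a-ps4 (0.81).

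Further lists are described beside the shares of all genes tested that were called in each direction. These were 3.23% higher and 3.46% lower in uninjected KO, 6.43% and 7.22% in KO/GFP against WT/GFP, and 7.85% and 6.92% with YAP in KO hearts. Ranges of a count cover the main fit, the other settings and each heart left out. Of 17 other smooth muscle genes, 2 were higher and 0 lower in uninjected KO hearts, *Pln* (1.38 on the log2 scale) and *Synpo2* (0.85). In KO/GFP against WT/GFP hearts 3 were higher and 2 lower, with *Itga8*, an integrin subunit, at -0.72, *Mustn1* at 0.65, *Flna*, the actin crosslinker filamin A, at -0.57 and *Pln* at 0.53. With YAP in KO hearts 3 were higher and 2 lower, with *Itga8* at 0.69, *Flna* at 0.58, *Pln* at -0.41 and *Des* at -0.40. *Pln*, phospholamban, and *Des*, desmin, are also cardiomyocyte genes. The median over the list was -0.06, -0.08 and 0.10 in these 3 comparisons, beside 0.00, -0.01 and 0.01 over all genes. The counts ran from 0 to 3 in each direction in uninjected KO hearts (1 higher and 0 lower without KO replicate 1), from 1 to 3 higher and 2 to 3 lower in KO/GFP, and from 2 to 5 higher and 0 to 3 lower with YAP in KO hearts. In the last 2 comparisons the counts were also 3 and 2 without KO/GFP replicate 2.

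Of the SRF and myocardin family, 9 of 10 genes were tested, and none passed in uninjected KO hearts, with or without KO replicate 1. In KO/GFP hearts 1 was lower, *Mrtfa*, an SRF cofactor, at -0.41, with a range of 0 to 3 (2 without KO/GFP replicate 2). With YAP in KO hearts 5 of 9 were higher in the main fit, against 7.85% of all genes, but the count ran from 2 to 6 and was 2 without KO/GFP replicate 2. Among them were *Fhl1* (0.85), *Klf4* (0.73), *Csrp1* (0.51) and *Srf* itself (0.50, SE 0.15, limma adjusted p = 0.0389). *Klf4* is known to repress contractile genes, the others to assist or follow SRF. *Srf* was at 80.6 to 142 CPM in KO/GFP and 144 to 202 CPM in KO/YAP hearts, which did not overlap. Its adjusted p was 0.131 when only these 2 groups were fitted, the highest among 12 other settings, of which 9 kept the call. It was 0.0674 without KO/GFP replicate 2, where the difference was 0.31, and 0.108 and 0.116 without KO/YAP replicate 1 or 2. *Myocd*, myocardin, did not pass in any comparison, with log2 differences of -0.15, 0.19 and 0.08, which were 0.21 without uninjected KO replicate 1, and 0.36 and -0.10 without KO/GFP replicate 2. None of the 9 had an interaction past the threshold, *Srf* being at 0.53 with a limma adjusted p of 0.151. That count stayed at 0 without KO/GFP replicate 2 and was 1, with a greater change in KO, without KO/GFP replicate 3 (range 0 to 1).

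Other pericyte genes gave a split answer. Of 16, 1 was higher in uninjected KO hearts, *Art3*, an ADP-ribosyltransferase relative, at 1.77, and it was the 1 higher in KO/GFP hearts too (1.43). In KO/GFP hearts 3 were lower: *Pde5a*, the cyclic GMP phosphodiesterase, at -0.82, *Rgs4*, a relative of *Rgs5*, at -0.67, and *Gucy1b1*, a subunit of soluble guanylate cyclase, at -0.34. With YAP in KO hearts *Pde5a* (0.85) and *Rgs4* (0.68) rose and *Art3* fell by 1.20 on the log2 scale. The interaction was past the threshold for the same 3 genes, at 1.26 for *Rgs4*, 0.86 for *Pde5a* and -0.94 for *Art3*, and for 3 genes with a greater and 1 with a smaller change in KO without KO/GFP replicate 2. *Rgs4* was also the 1 called gene of 4 tested from the R4 subfamily of RGS proteins, to which *Rgs5* belongs, and the count there was also 1 in each of these comparisons without KO/GFP replicate 2. The median of the pericyte list was -0.15 in uninjected KO, -0.17 in KO/GFP and 0.18 with YAP in KO hearts, and -0.11, -0.25 and 0.24 without uninjected KO replicate 1 or KO/GFP replicate 2. The counts lower ran from 0 to 4 in uninjected KO (0 without KO replicate 1) and from 2 to 4 in KO/GFP hearts (4 without KO/GFP replicate 2), and the count higher with YAP from 2 to 6 (2 without it).

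The partners of *Abcc9* were 3 genes of KATP channels, and the 2 that encode the pore did not pass the test in the main fit. *Kcnj8*, the pore of the vascular KATP channel, was at 57.1 ± 4.58 CPM in WT/GFP and 51.5 ± 2.53 in KO/GFP hearts (log2 difference -0.14, limma adjusted p = 0.372). *Kcnj11*, the pore of the cardiomyocyte channel, was at 102 ± 6.13 and 122 ± 10.2 CPM (0.26, limma adjusted p = 0.18). Their log2 differences with YAP in KO hearts were 0.19 (limma adjusted p = 0.204) and -0.34 (0.0746), and those in uninjected KO hearts -0.13 (0.757) and 0.23 (0.265). *Kcnj8* was called with YAP in KO hearts with plain CPM (0.32, adjusted p = 0.0390). *Kcnj11* was called there without KO/YAP replicate 4 (-0.43, adjusted p = 0.0324), and in uninjected KO hearts without KO replicate 4 (0.32, adjusted p = 0.0464). The third, *Abcc8*, the other regulatory subunit, was called in the main fit, at 0.50 in KO/GFP hearts and -0.42 with YAP in KO hearts. The counts of 1 ran from 0 to 1 and from 0 to 2, and were 1 in each without KO/GFP replicate 2. Within groups *Abcc9* had r = -0.38 with *Kcnj8* and 0.12 with *Kcnj11* (0.06 and 0.38 without uninjected KO replicate 1).

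*Pdgfb*, the ligand of *Pdgfrb*, was at 78.6 ± 6.38 CPM in WT/GFP, 62.6 ± 14.2 in KO/GFP and 80.1 ± 11.1 in KO/YAP hearts. Its log2 differences, -0.35 and 0.37, did not pass the test (limma adjusted p = 0.104 and 0.0790). Without KO/GFP replicate 2 they were -0.48 and 0.50, both past the threshold (adjusted p = 0.0106 and 0.00901). Of the PDGF ligands and receptors other than *Pdgfrb*, only *Pdgfrl*, a receptor-like gene, was called, at -0.71 in KO/GFP hearts and 1.02 with YAP in KO hearts. Without KO/GFP replicate 2 the called genes were 2 in each, and over all settings 0 to 2 and 1 to 2. In uninjected KO hearts 0 were called, and 1 was lower without KO replicate 1.

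Around *Notch3*, which did not pass the test in any comparison, several genes of the Notch pathway did. Of 15 genes, 3 were lower in uninjected KO hearts: *Nrarp*, a feedback inhibitor (-1.07), *Dll4*, a ligand of endothelial cells (-0.71), and *Heyl*, a target of Notch3 in mural cells (-0.56). In KO/GFP hearts 5 were lower and 1 higher, with *Hey1* at -1.06, *Nrarp* at -1.02 and *Heyl* at -0.88 against *Hey2* at 1.39. With YAP in KO hearts 4 were higher and 1 lower, with *Nrarp* at 1.01, *Hey1* at 0.86 and *Heyl* at 0.74 against *Hey2* at -2.01. Beside the shares of all genes given above, the count lower ran from 2 to 5 in uninjected KO (4 without KO replicate 1) and from 3 to 6 in KO/GFP hearts (5 without KO/GFP replicate 2), and the count higher with YAP from 1 to 6 (5 without it). *Hey2* and *Hey1* are also genes of cardiomyocytes and endothelium. The median of the list was -0.25, -0.14 and 0.24 in these comparisons, and -0.10, -0.18 and 0.27 without uninjected KO replicate 1 or KO/GFP replicate 2.

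*Heyl* was at 54.1 to 62.9 CPM in uninjected WT and 35.6 to 44.5 CPM in uninjected KO hearts. In injected hearts it was at 53.1 to 72.6 CPM in WT/GFP, 27.4 to 50.0 in KO/GFP, 47.3 to 52.9 in WT/YAP and 53.3 to 59.5 in KO/YAP hearts. The KO/GFP hearts overlapped neither WT/GFP nor KO/YAP hearts. The uninjected call was lost without WT replicate 3 or 4 (adjusted p = 0.0626 and 0.0538) and held in 10 of 11 other settings (adjusted p up to 0.0891). The uninjected difference was -0.62 without KO replicate 1 (0.00479). Without KO/GFP replicate 2 the difference was -1.08 in KO/GFP hearts and 0.93 with YAP in KO hearts. Its interaction was 1.03 (SE 0.21, limma adjusted p = 0.009997) and past the threshold whichever heart was left out. *Jag1*, a ligand that mural cells meet on endothelium, was at 29.3 ± 2.86 CPM in WT/GFP and 20.3 ± 2.44 in KO/GFP hearts, a log2 difference of -0.51 with a limma adjusted p of 0.0364. That call was lost without any 1 of 6 of the 8 hearts (adjusted p up to 0.111) and held without KO/GFP replicate 2 (0.0230). In uninjected KO hearts *Jag1* had a log2 difference of -0.64 (limma adjusted p = 0.0617), and -0.46 without KO replicate 1 (0.0155). Within groups *Notch3* had r = -0.22 with *Heyl* and 0.42 with *Jag1* (-0.01 and -0.17 without uninjected KO replicate 1).

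**Figure D4:**
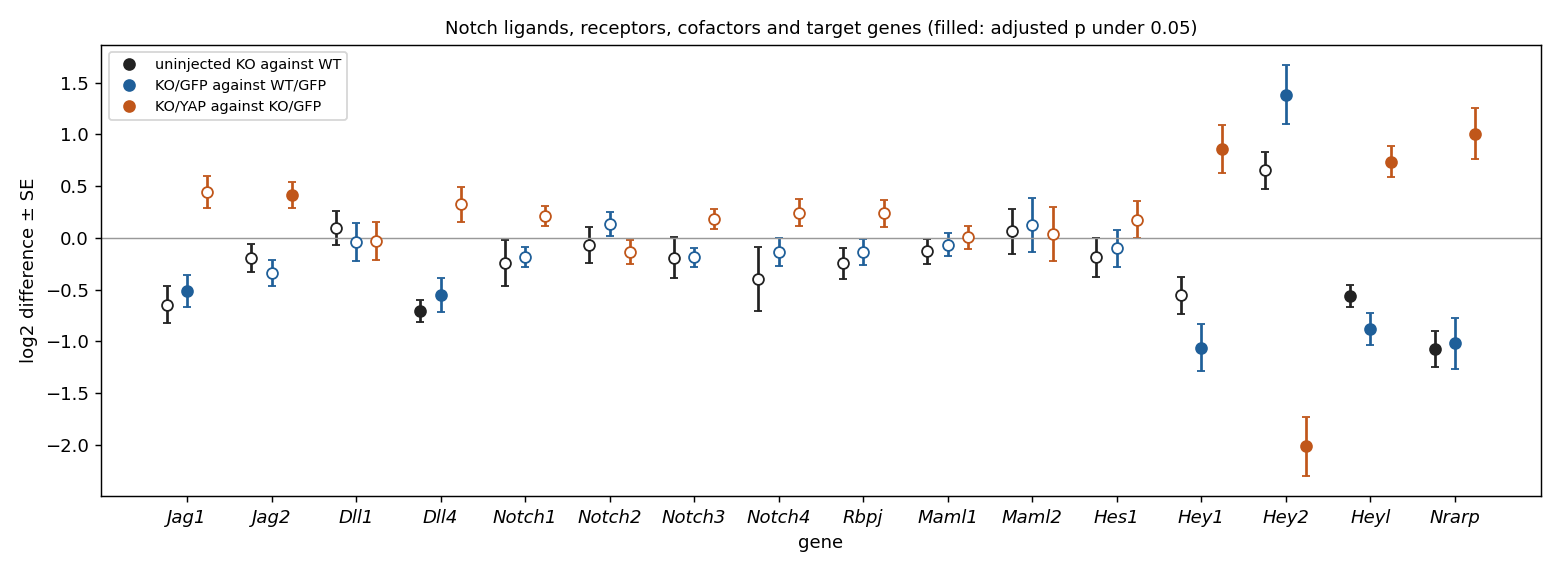
Log2 difference ± SE (vertical axis) of *Notch3* and the 15 other Notch pathway genes (horizontal axis) in 3 comparisons, marked by colour; filled points have an adjusted p under 0.05 from limma. *Notch3* is at -0.19 in KO/GFP hearts and 0.18 with YAP in KO hearts, neither filled. *Hey1*, *Heyl* and *Nrarp* lie below 0 in KO/GFP hearts and above 0 with YAP in KO hearts, and *Hey2* lies on the opposite side. The 2 comparisons of injected hearts share the KO/GFP libraries.

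Of 12 genes of TGF-β and angiopoietin signalling, which act between endothelium and mural cells, 2 were higher in uninjected KO hearts, *Angpt1*, a ligand made by mural cells and cardiomyocytes (1.56), and *Eng*, a TGF-β coreceptor (0.38). In KO/GFP hearts *Angpt1* was higher (1.52) and *Tgfb3* (-0.47), *Tek*, the angiopoietin receptor (-0.38), and *Tgfb2* (-0.34) were lower. With YAP in KO hearts *Tgfb3* (0.73) and *Tgfb2* (0.65) rose and *Angpt1* fell by 1.18 on the log2 scale. Of 8 tested actin and calponin relatives of the members, *Actg1*, a cytoplasmic actin, and *Cnn2* were lower in KO/GFP hearts (-0.57 and -0.44) and higher with YAP in KO hearts (0.60 and 0.47). These counts of 2 ran from 0 to 4 and from 0 to 3, and were 4 and 3 without KO/GFP replicate 2. For the TGF-β and angiopoietin list the counts ran from 0 to 3 higher and 0 to 2 lower in uninjected KO (3 and 1 without KO replicate 1), from 1 to 2 and 0 to 3 in KO/GFP, and from 2 to 4 and 0 to 3 with YAP in KO hearts (2 and 2, and 3 and 2, without KO/GFP replicate 2).

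Markers of other cells moved in the same comparisons as *Myh11*, *Acta2* and *Rgs5*. Of 10 fibroblast markers, 5 were lower in uninjected KO, 7 lower in KO/GFP and 7 higher with YAP in KO hearts, with a median log2 difference of -0.75, -0.75 and 0.88. These counts ran from 3 to 6, 5 to 7 and 6 to 7 (5 without uninjected KO replicate 1, and 6 and 7 without KO/GFP replicate 2). Their summed level was 4922 to 5805 CPM in WT/GFP, 2577 to 3839 in KO/GFP and 5331 to 6389 in KO/YAP hearts. Of the macrophage markers, 6 of 8 tested were lower in uninjected KO hearts, 6 of 9 lower in KO/GFP and 6 of 9 higher with YAP in KO hearts, with sums of 124 to 199.4, 58.4 to 121 and 117 to 162 CPM in WT/GFP, KO/GFP and KO/YAP hearts. These counts ran from 2 to 6, 4 to 6 and 3 to 7 (6 without uninjected KO replicate 1, and 6 and 5 without KO/GFP replicate 2). Of 10 endothelial markers 1, the VEGF receptor *Kdr* (-0.60), was lower in uninjected KO hearts (2 without KO replicate 1, range 0 to 2). In KO/GFP hearts, where the list summed to 1488 to 1693 CPM against 1793 to 1943 in WT/GFP, 3 were lower, and 3 were higher and 1 lower with YAP in KO hearts, where they summed to 1785 to 1893 CPM. The counts ran from 1 to 4 lower and from 1 to 6 higher (3 and 4 without KO/GFP replicate 2). Of the red cell genes 0 of 5 tested passed in uninjected KO hearts, with or without KO replicate 1 and in each setting. All 5 had negative log2 differences there, with a median of -0.35, and -0.51 without KO replicate 1. Of 6 tested in injected hearts 5 were lower in KO/GFP hearts, with a range of 1 to 5 over the settings (5 without KO/GFP replicate 2, 4 to 5 with any 1 heart left out), and 0 passed the test with YAP in KO hearts. Their medians were -1.16 and 0.03, and -1.43 and 0.31 without KO/GFP replicate 2.

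Among 10 cardiomyocyte markers 2 were higher in uninjected KO hearts, *Tnnt2* (0.60) and *Pln* (1.38), with a range of 0 to 3 (2 without KO replicate 1). In KO/GFP hearts 3 were higher, *Tnnt2*, *Myh7* and *Pln*, and these 3 were lower with YAP in KO hearts. The counts ran from 2 to 4 and from 1 to 3 (4 and 3 without KO/GFP replicate 2). Of the epicardium markers, which line the surface that gives rise to mural cells, 1 of 3 tested, *Krt18*, was lower in uninjected KO hearts (without KO replicate 1, 1 was lower and 1 higher), and of 6 tested in injected hearts none passed in KO/GFP hearts and *Krt18* (1.34) and *Krt19* (-0.82) moved apart with YAP. Without KO/GFP replicate 2, 1 epicardium marker was lower in KO/GFP hearts, and 1 was higher and none lower with YAP. The 4 contractile members summed to 559 to 924 CPM in WT/GFP, 399 to 638 in KO/GFP and 883 to 1335 in KO/YAP hearts, most of it *Acta2*. The 5 pericyte members summed to 1406 to 1662, 1218 to 1477 and 1447 to 1650 CPM. The part of other cells in the values of *Myh11*, *Acta2* and *Rgs5* was not tested.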

How the data were processed

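Reads were trimmed with cutadapt 2.3 and aligned with HISAT2 2.1.0 to GRCm38, genes were quantified with StringTie 1.3.4, and edgeR 3.26.1 was used for scaling, per the labels and the study's methods. The authors deposited CPM values in 2 tables, 1 for 8 uninjected hearts (single reads) and 1 for 16 injected hearts (paired reads). The columns are a scaled signal, made by the authors with edgeR from StringTie estimates based on read coverage. Sums per library ran from 942566 to 1134439, so a scaling factor was applied, of a kind not given in the sources used here. CPM values were whole multiples of 1 read for at least 99.88% of values (tolerance 0.01 reads), and these recovered reads, themselves estimates, served for depth and for count tests.

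Gene names came from GENCODE M21 and matched 15655 and 15314 IDs. Genes over 1 CPM in at least 4 of 8 or 8 of 16 libraries were tested by limma 3.58.1 with a mean-variance trend on log2(CPM + 1), in R 4.3.3, 1 fit per table with a mean per group and Benjamini-Hochberg adjustment over all genes tested (call: adjusted p under 0.05). Fold changes are on this scale and understate low genes such as *Cnn1*. An exact permutation of 4 against 4 cannot go below p = 0.029. The fits of KO against WT hearts, uninjected and with GFP, were also run on simulated reads. These had the same spread for all genes and no library set apart, and the other comparisons were not simulated. Likeness was the Pearson r of deviations from group means.

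Members and lists were chosen with earlier results of these data known. All 9 members are named, at most 4 genes per further list and comparison (largest change among those called), their direct partners, and the 2 genes most like each member. Hearts with the same replicate number did not deviate alike: correlations of same-numbered deviations ran from -0.191 to 0.137. This cannot show whether hearts were paired by litter, since the labels name no litters, and litter was not modelled. Alternatives were edgeR 4.0.16, DESeq2 1.42.0, other scalings, pseudocount 0.1, other filters, no trend, 2 groups per fit, a replicate block, *Ddx3y* as a covariate for sex, and each heart left out. Intervals and totals cover counting error and spread between hearts only.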

Additional observations from a re-analysis of the deposited data

Results flagged for a closer look

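*Pdgfrb* in KO/GFP replicate 3, at 148 CPM, lay far above the other 3 hearts of its group, which were at 123 to 126.7 CPM. It was the only value set apart in this way among 54 groups of 4 values (9 members in 6 groups), where chance alone sets apart about 1 in 20 groups.

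The response to YAP differed between genotypes, by the interaction test of limma, for *Acta2* (a log2 change greater by 1.07 in KO than in WT hearts) and for *Rgs5* (greater by 0.60). With 1 heart left out, the limma adjusted p reached 0.0540 for *Acta2*, past the threshold, and 0.0432 for *Rgs5*. For *Acta2* every KO/YAP heart exceeded every KO/GFP heart, while WT/YAP and WT/GFP hearts overlapped. For *Rgs5* the KO/YAP hearts exceeded all KO/GFP hearts, and the mean of WT/YAP hearts was under that of WT/GFP hearts.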

How the results depend on the processing

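The 12 alternatives to the main settings, besides leaving out each of 24 hearts, gave 0 changes of sign among the 7 called member values. In KO/GFP against WT/GFP hearts the members called were 3 of 9 with DESeq2, with plain CPM and with quantile normalization, in place of 1, *Acta2* and *Rgs5* being added, while over all genes 2393, 2349 and 2006 were called, against 1993. The cause was not tested. Plain CPM moved the median log2 difference of all genes to -0.11 in that comparison, -0.12 in uninjected KO, 0.13 with YAP in KO hearts and 0.12 for the interaction. With the replicate block, whose numbers are not known to pair hearts, 0 members were called in uninjected KO hearts (*Myh11* adjusted p = 0.101). In KO/GFP hearts 2 were called with it (*Acta2* added), and it changed no other count of members. Leaving out 1 heart gave 0 to 1 members called in uninjected KO, 0 to 2 in KO/GFP against WT/GFP, 2 to 3 with YAP in KO hearts and 1 to 2 for the interaction. Of 56 member values not called, 24 changed sign in at least 1 alternative, none larger than 0.20 on the log2 scale and 0 of them called. The alternative with only 2 groups could not be applied to the interaction or to uninjected hearts, which form a fit of 2 groups already. Depth limits *Cnn1*, at a few CPM. Over all genes, 1044 were called in uninjected KO hearts, against 1955 with DESeq2, 1594 with plain CPM and 1927 with *Ddx3y* as a covariate, and with the block 2.47% of genes were called in place of 6.69%. With only 2 groups in the fit, 962 in place of 1993 were called in KO/GFP and 1282 in place of 2156 with YAP in KO hearts. The interaction gave 707 in place of 1104 with the block, and KO/YAP hearts differed in 24 in place of 3 genes from WT/GFP and in 67 in place of 6 from WT/YAP hearts with DESeq2 (15 with only 2 groups in the fit). With 1 heart left out, the genes called ran from 379 (without WT replicate 1) to 2098 (without KO replicate 4) in uninjected KO, from 1262 (without KO/GFP replicate 4) to 2756 (without KO/GFP replicate 2) in KO/GFP, from 1480 to 2500 (without KO/GFP replicate 1 or 2) with YAP in KO hearts, and from 631 (without WT/YAP replicate 4) to 1474 (without KO/GFP replicate 2) for the interaction. Medians of the likeness between members and list counts without uninjected KO replicate 1 or KO/GFP replicate 2 were chosen after seeing the data.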
